A study of Caenorhabditis elegans with 51 samples.

Results

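The clk-1(qm30) mutant of Caenorhabditis elegans was compared with the wild-type strain N2 by RNA sequencing of whole worms. The members were the 6 clk-1 libraries and the 6 wild-type libraries prepared for the same table, numbered replicates 1 to 6 and 7 to 12 in the labels, which makes 12 of the 39 libraries in that table and 12 of the 51 in the series. All worms were well fed, synchronized, pre-fertile young adults grown on NGM plates with OP50 bacteria, and the study's methods describe 6 biological replicates per strain. The table also held 6 libraries each of isp-1(qm150), nuo-6(qm200) and daf-2(e1370), and 3 libraries each of strains labelled sod-1, ctl-1 and prdx-2, genes of a superoxide dismutase, a catalase and a peroxiredoxin. The daf-2 gene encodes the insulin receptor. The labels name each strain by its gene alone, so the alleles given here are those of the study's strain list, and each mutant strain stands for 1 allele. The comparison asks which genes differ in worms that cannot complete ubiquinone synthesis.

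Ubiquinone is the lipid electron carrier of the mitochondrial inner membrane. It takes electrons from complex I (of which nuo-6 encodes a subunit), from complex II and from several other dehydrogenases, and hands them to complex III (of which isp-1 encodes the Rieske iron-sulphur protein). CLK-1 is the hydroxylase that acts late in its synthesis, and clk-1 mutants accumulate the precursor demethoxyubiquinone, take ubiquinone from their bacterial food, develop slowly and live long.

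Depth was even, from 23116865 to 28805205 reads over the 12 libraries. Values are CPM (read counts scaled to a common library total) as scaled by the authors, and log2 differences are on the log2(CPM + 0.5) scale with their standard error (SE). They are clk-1 minus wild type unless said otherwise, with n = 6 libraries per strain. A gene is called changed at a limma false discovery rate below 0.05 over all 14033 genes tested. Of these, 842 were higher in clk-1, which is 6% of genes tested, and 318 were lower, which is 2.27%. The changes were mostly small. The median log2 difference was 0.72 among genes called higher, -0.69 among genes called lower and -0.01 over all genes, and 248 of the higher and 99 of the lower genes changed at least 2-fold (a log2 difference of at least 1). For 621 genes (4.43%) every clk-1 library lay above every wild-type library, and for 239 genes (1.7%) every one lay below.

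Wild-type replicates 9 and 10 stood apart from the other wild-type libraries. On the first principal component of the 12 libraries (41.05% of variance) they had the highest scores, the strains separating mainly on the second (22.6%). In wild-type replicate 10, 253 genes were more than 2-fold above the highest of the other wild-type libraries. Both had the lowest wild-type sums of the 26 oocyte and eggshell markers (4300 and 3904 CPM against 6898 to 10090) and the highest sums of the 26 moulting genes (3181 and 7872 CPM against 1026 to 1746). In clk-1 replicate 3, 55 genes were more than 2-fold below the lowest of the other clk-1 libraries, and 61.8% of these overlap a gene on the opposite strand, against 25.5% of 13591 genes. In clk-1, replicate 4 had the lowest oocyte sum (3845 CPM against 5261 to 9014). No oocyte, sperm, germline, muscle, intestine, hypodermis or neuron marker was called between the strains, and of the 6 coelomocyte and excretory markers exc-4 was lower (-0.31, adjusted p = 0.016, and up to 0.058 without clk-1 replicate 4 or 6). None of 11 intestine, 1 of 16 muscle and 3 of 20 germline markers had a positive difference (medians -0.24, -0.08 and -0.11). Of 43 sperm, 26 oocyte, 12 hypodermis and 17 neuron markers, 14, 10, 4 and 9 were positive. The summed intestine markers were 5016 to 10043 CPM in wild type and 3746 to 7452 CPM in clk-1. In whole worms, fewer cells of a type and less RNA per cell cannot be told apart. Leaving out both wild-type libraries left 650 genes higher and 151 lower. Of the original calls, 568 and 131 were among them.

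The mutated gene itself was checked first. The clk-1 transcript ranged from 17.8 to 26.2 CPM in wild type (median 22.8) and from 8.87 to 12.199 CPM in clk-1 (median 9.91). The strains did not overlap, and the log2 difference was -1.12 (SE 0.09, adjusted p = 5e-11). Values count reads over the whole gene, and whether the fall was even along the mutated gene was not tested. In the other strains its mean was 34.8 CPM in isp-1, 44.8 CPM in nuo-6 and 21.6 CPM in daf-2, so that the clk-1 libraries held the lowest mean in the table.

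Most other genes of ubiquinone synthesis moved the opposite way. Of 8 tested, 5 rose (62.5%, against 6% of all genes) and only clk-1 itself fell. The largest rise was that of coq-1, the prenyl synthase that makes the side chain of ubiquinone. It ranged from 41.1 to 56.6 CPM in wild type (median 50.6) and from 78.7 to 110 CPM in clk-1 (median 92.8), with a log2 difference of 0.89 (SE 0.13, adjusted p = 1.2e-05). For coq-2, which joins the side chain to the ring, the wild-type range was 20.6 to 23.4 CPM and the clk-1 range 29.4 to 32.1 CPM, a log2 difference of 0.49 (SE 0.10, adjusted p = 0.00094). The groups did not overlap for either gene.

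Members of the complex that modifies the ring also rose. For coq-4, which is known to organise this complex, the range moved from 9.46 to 11.9 CPM in wild type to 12.9 to 17.1 CPM in clk-1 (log2 difference 0.46, adjusted p = 0.0036). For coq-8, which encodes an atypical kinase, it moved from 71.9 to 103 CPM to 99.6 to 168 CPM (log2 difference 0.55, adjusted p = 0.012), with 1 clk-1 library inside the wild-type range. The methyltransferase gene coq-5 passed only narrowly, at a log2 difference of 0.45 (adjusted p = 0.043), and that call was lost on leaving out any library other than clk-1 replicate 1 (adjusted p up to 0.1). The methyltransferase gene coq-3 (log2 difference 0.26, adjusted p = 0.13) and the hydroxylase gene coq-6 (0.17, adjusted p = 0.21) did not pass. The mean of coq-1 was 103.7 CPM in isp-1, 107 CPM in nuo-6 and 54.5 CPM in daf-2, against 92.2 CPM in clk-1.

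**Figure D1:**
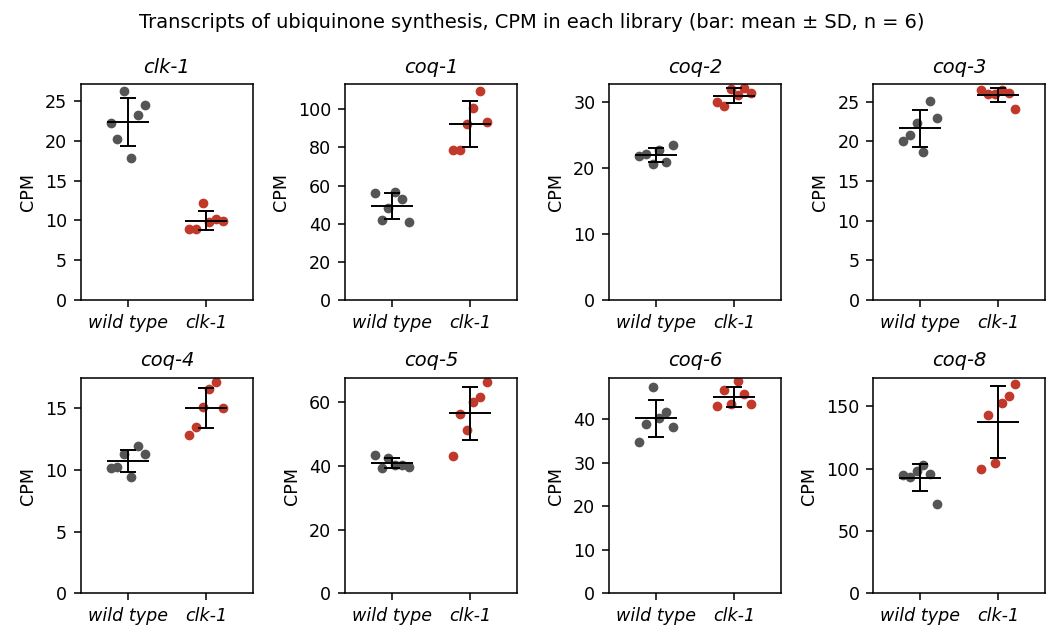
CPM of the 8 ubiquinone synthesis genes in each wild-type (grey) and clk-1 (red) library, with the mean and SD of 6 libraries as bars and each axis starting at 0. The count of the clk-1 gene is lower in all 6 mutant libraries, coq-1, coq-2 and coq-4 are higher in all 6, and coq-3 and coq-6 overlap between the strains.

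The kynurenine pathway supplies the precursor of rhodoquinone, the carrier that worms use in place of ubiquinone when oxygen is low. None of its 7 genes tested was called against wild type. Log2 differences ran from -0.07 for tdo-2, the tryptophan dioxygenase gene at the head of the pathway (adjusted p = 0.89), to 0.43 for haao-1, which acts on 3-hydroxyanthranilate (adjusted p = 0.13). The others were afmd-1 (-0.06), kmo-1 (0.18), R07B7.4 (kmo-2, -0.06), flu-2 (kynu-1, 0.25) and nkat-3 (0.04). None of the 6 tested genes of tyrosine and phenylalanine breakdown passed either. Against the sod-1, ctl-1 and prdx-2 libraries 4 kynurenine genes (median 0.51) and 3 tyrosine and phenylalanine genes (median 0.36) were higher.

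Genes of mitochondrial protein quality control rose, 6 of the 14 tested (42.9%, against 6% of all genes), and none fell. The mitochondrial unfolded protein response is the programme by which disturbed mitochondria raise the transcription of their own chaperones and proteases. The mitochondrial HSP70 gene hsp-6 ranged from 663 to 1066 CPM in wild type (median 790) and from 930 to 1867 CPM in clk-1 (median 1361), so that the strains overlapped in the lowest mutant and the highest wild-type library. Its log2 difference was 0.69 (SE 0.16, adjusted p = 0.0048). The transcript of timm-23, the channel of the inner-membrane import machinery, showed no overlap, with 76.5 to 96.6 CPM in wild type and 138 to 186 CPM in clk-1 (log2 difference 0.86, SE 0.12, adjusted p = 2e-06).

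Also higher were haf-1, a transporter that exports peptides from the matrix (0.75, adjusted p = 0.00099), dnj-10, a mitochondrial co-chaperone (0.58, adjusted p = 0.00052), and the protease genes ymel-1 (0.49, adjusted p = 0.0021) and clpp-1 (0.46, adjusted p = 0.0052). The chaperonin gene hsp-60, the partner of hsp-6 in that response, ranged from 612 to 906 CPM in wild type and from 605 to 879 CPM in clk-1. Its log2 difference was -0.09 (adjusted p = 0.79). The transcription factor gene of the response, atfs-1, had a log2 difference of 0.29 (adjusted p = 0.4). Hsp-6 in the respiratory-chain mutants averaged 1269 CPM in isp-1 and 1414 CPM in nuo-6 against 1332 CPM in clk-1.

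The mitochondrial thioredoxin pair rose, whereas of the superoxide dismutase and catalase genes tested only sod-3 did (0.83, SE 0.23, adjusted p = 0.017). It encodes a mitochondrial superoxide dismutase and is a known DAF-16 target. The gene overlaps another on the opposite strand, and its difference from the sod-1, ctl-1 and prdx-2 libraries was 0.27 (adjusted p = 0.46). The thioredoxin reductase gene trxr-2 ranged from 10.2 to 14.2 CPM in wild type and from 21.2 to 27.1 CPM in clk-1, a log2 difference of 1.09 (SE 0.12, adjusted p = 1.8e-08). Its substrate trx-2 moved from 30.8 to 36.1 CPM to 41.3 to 55.2 CPM (0.55, SE 0.13, adjusted p = 0.0041). Neither gene overlapped between strains, and both overlap another gene on the opposite strand. They were the 2 genes called in a list of 21 antioxidant enzymes that does not hold sod-3 (9.52%, near the 6% of all genes). None of the 10 genes of that list without such an overlap was called. Log2 differences for sod-1, sod-2 and ctl-2 were 0.20, 0.14 and 0.11, and that of the mitochondrial peroxiredoxin gene prdx-3 was 0.37 (adjusted p = 0.053).

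The respiratory chain itself moved little against wild type. None of 14 complex I genes was called, although 13 had a positive difference and the median was 0.13. Of 31 genes of complexes II to V only the cytochrome c gene cyc-2.1 rose (0.40, adjusted p = 0.026), and that call was lost on leaving out wild-type replicate 7, 8 or 12 or clk-1 replicate 4 or 6 (adjusted p up to 0.081). Of the 12 mitochondrially encoded proteins, nduo-2 rose (0.68, adjusted p = 0.023), which was lost without wild-type replicate 10 or clk-1 replicate 6 (adjusted p up to 0.064). Against the 9 sod-1, ctl-1 and prdx-2 libraries 11 of the complex I genes (median 0.41) and 22 of complexes II to V (median 0.37) were higher. After quantile normalization 2 and 7 were higher than in wild type. Of 29 mitochondrial small ribosomal subunit genes 3 rose (10.3%, against 6% of all genes), the largest being mrps-11 (0.39, adjusted p = 0.00096).

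Sulfide oxidation gave one of the clearest changes. SQRD-1, the sulfide:quinone oxidoreductase, detoxifies hydrogen sulfide and passes its electrons directly to ubiquinone. Its transcript ranged from 2.51 to 3.33 CPM in wild type (median 2.88) and from 9.62 to 21.3 CPM in clk-1 (median 11.3). All clk-1 libraries lay far above all wild-type libraries, with a log2 difference of 2.01 (SE 0.18, adjusted p = 1.6e-10). The gene overlaps another on the opposite strand. Its mean was 16.6 CPM in isp-1, 17.6 CPM in nuo-6 and 21.9 CPM in daf-2.

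In all, 6 of 14 genes of the hypoxia and sulfide list rose (42.9%, against 6% of all genes) and none fell. The risen count was 4 to 7 on leaving out single libraries. The nuclear receptor gene nhr-57, a known target of the hypoxia factor HIF-1, moved from 1.52 to 3.3 CPM to 4.16 to 12 CPM (1.44, SE 0.21, adjusted p = 6.8e-06). The glyceraldehyde-3-phosphate dehydrogenase gene gpd-3 (0.77, adjusted p = 5e-06) and the lactate dehydrogenase gene ldh-1 (0.75, adjusted p = 0.014) rose without overlap. The sulfide-responsive cysl-1 rose by 0.67 (adjusted p = 0.013, but 0.054 without clk-1 replicate 4), and the persulfide dioxygenase gene ethe-1 by 0.60 (adjusted p = 0.029, but up to 0.091 without wild-type replicate 9 or 10 or clk-1 replicate 3, 4 or 5). The hif-1 transcript (0.15, adjusted p = 0.55) and its hydroxylase gene egl-9 (0.46, adjusted p = 0.054) did not pass.

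**Figure D2:**
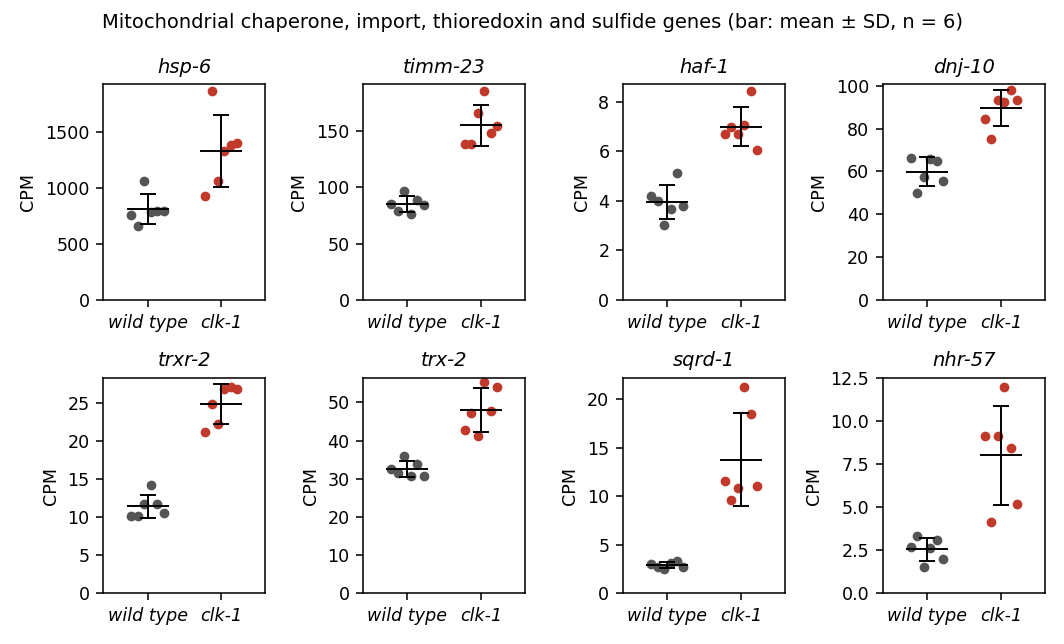
CPM of 8 mitochondrial chaperone, import, thioredoxin and sulfide genes in each wild-type (grey) and clk-1 (red) library, with the mean and SD of 6 libraries as bars and each axis starting at 0. The strains are separate for all of them but hsp-6, where the lowest clk-1 library (930 CPM) lies below the highest wild-type library (1066 CPM).

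Of 23 genes of glycolysis and gluconeogenesis 8 rose (34.8%, against 6% of all genes) and none fell. The phosphoenolpyruvate carboxykinase gene pck-1, which starts gluconeogenesis, ranged from 136 to 213 CPM in wild type (median 161) and from 258 to 565 CPM in clk-1 (median 401), a log2 difference of 1.26 (SE 0.16, adjusted p = 8.5e-07). The aldolase gene aldo-1 ranged from 172 to 308 CPM and from 299 to 551 CPM (0.82, SE 0.15, adjusted p = 0.00021). Smaller rises were those of gpd-2 (0.73), ipgm-1 (phosphoglycerate mutase, 0.59), pck-2 (0.52), enol-1 (enolase, 0.49) and aldo-2 (0.46).

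Of 24 citric acid cycle genes 3 rose against wild type, with small differences (12.5%, against 6% of all genes). Against the sod-1, ctl-1 and prdx-2 libraries 18 were higher (median 0.41). The 3 called against wild type were pdha-1 (0.26, adjusted p = 0.034), idhg-1 (0.27, adjusted p = 0.043) and aco-2 (0.34, adjusted p = 0.039). Each of these calls was lost on leaving out any of several single libraries, among them wild-type replicates 7, 8, 11 and 12 and clk-1 replicates 2, 4, 5 and 6, with adjusted p up to 0.09, 0.12 and 0.11. The glyoxylate enzyme gene icl-1, which lets worms make sugar from fat, rose more, from 460 to 692 CPM in wild type to 895 to 2513 CPM in clk-1 (1.11, SE 0.25, adjusted p = 0.0034). None of 10 trehalose and glycerol synthesis genes passed.

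Against wild type, the genes of propionate breakdown called higher were those of the vitamin B12-dependent route, and no gene of the alternative route was called. All its enzyme genes passed, namely pcca-1 (0.51, adjusted p = 0.00045) and pccb-1 (0.37, adjusted p = 0.03) of propionyl-CoA carboxylase, the epimerase gene mce-1 (0.52, adjusted p = 0.0034) and the mutase gene mmcm-1 (0.39, adjusted p = 0.0024). For mmcm-1 the wild-type range was 172 to 189 CPM and the clk-1 range 213 to 258 CPM. The pccb-1 call was lost without wild-type replicate 7, 8, 11 or 12 or clk-1 replicate 2, 4, 5 or 6 (adjusted p up to 0.091). The shunt that worms use when B12 is short varied within each strain instead. Its first gene acdh-1 ranged from 741 to 2469 CPM in wild type and from 471 to 2539 CPM in clk-1 (-0.14, SE 0.66), and Y38F1A.6 (hphd-1) and F09F7.4 (hach-1) were likewise spread, the latter from 89.3 to 889 CPM among clk-1 libraries. Over the whole list, 4 of 11 genes rose (36.4%, against 6% of all genes). Against the sod-1, ctl-1 and prdx-2 libraries 9 of the 11 were higher (median 0.93).

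Lipid metabolism included one of the largest changes. ACS-2, the acyl-CoA synthetase that feeds fatty acids into mitochondrial oxidation and is known to rise on fasting, ranged from 15.9 to 60 CPM in wild type (median 23.7) and from 165 to 621 CPM in clk-1 (median 291). The log2 difference was 3.40 (SE 0.62, adjusted p = 0.00024). Its mean was 301 CPM in isp-1, 713 CPM in nuo-6 and 63.7 CPM in daf-2. Of the 20 acs genes 2 rose and 2 fell, 10% each against 6% and 2.27% of all genes. The fallen ones were acs-4 (-0.31, adjusted p = 0.029) and acs-15 (-0.60, adjusted p = 0.048), each lost without wild-type replicate 8 or clk-1 replicate 4 among others (adjusted p up to 0.089 and 0.14).

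Of 23 desaturase and elongase genes only fat-1 (0.47, adjusted p = 0.0023) and fat-2 (0.60, adjusted p = 0.0027) rose, the desaturases that make polyunsaturated fatty acids. The stearoyl-CoA desaturase gene fat-7 ranged from 59.7 to 111 CPM in wild type and from 18.1 to 71.8 CPM in clk-1 and did not pass (-1.16, SE 0.48, adjusted p = 0.13). Peroxisome genes of the prx family were positive in all 11 cases and 3 were called, namely prx-5 (0.46), prx-19 (0.45) and prx-10 (0.37, adjusted p = 0.026, but up to 0.078 without wild-type replicate 8 or 9 or clk-1 replicate 3, 5 or 6). Of 19 genes of the methionine cycle and phosphatidylcholine synthesis only sams-3, an S-adenosylmethionine synthetase gene, fell (-0.57, adjusted p = 0.022, but 0.064 without wild-type replicate 10). The gene overlaps another on the opposite strand, and its difference from the sod-1, ctl-1 and prdx-2 libraries was -0.012 (adjusted p = 0.97). None of the 6 vitellogenin genes passed against wild type, but 4 were higher against the sod-1, ctl-1 and prdx-2 libraries (median 1.72).

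The proteasome, the complex that degrades ubiquitin-tagged proteins, had many subunit genes on the lower side. All 31 subunit genes had a negative difference, with a median of -0.23, and 14 of them fell (2.27% of all genes did). The differences were small and even, from -0.43 to -0.14. The largest was that of rpn-9, a lid subunit, which ranged from 176 to 222 CPM in wild type (median 184) and from 128 to 151 CPM in clk-1 (median 140) (SE 0.08, adjusted p = 0.00055). Other subunits of the regulatory particle that fell were rpn-12 (-0.35, adjusted p = 0.00067) and rpn-1 (-0.34, adjusted p = 0.00024), and of the catalytic core pbs-1 (-0.35, adjusted p = 0.0093) and pbs-5 (-0.38, adjusted p = 0.016, but 0.051 without wild-type replicate 9). The rpn-9 gene overlaps another on the opposite strand, and of the 21 subunit genes without such an overlap 11 were lower.

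Summed over the 31 genes, the level was 6011 to 6782 CPM in wild type and 4756 to 5785 CPM in clk-1, without overlap. The summed germline markers were 4430 to 6667 CPM in wild type and 3687 to 5484 CPM in clk-1. Their part in the proteasome difference was not tested. The call depends on the reference and the scaling. Against the 9 sod-1, ctl-1 and prdx-2 libraries in place of wild type 2 subunits were lower (median -0.04), after quantile normalization 5 were (median -0.15), and without wild-type replicate 12, clk-1 replicate 1 or clk-1 replicate 4 the count was 8. The 31 rps and 47 rpl genes of the cytosolic ribosome gave no call, the rps median being -0.10.

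**Figure D3:**
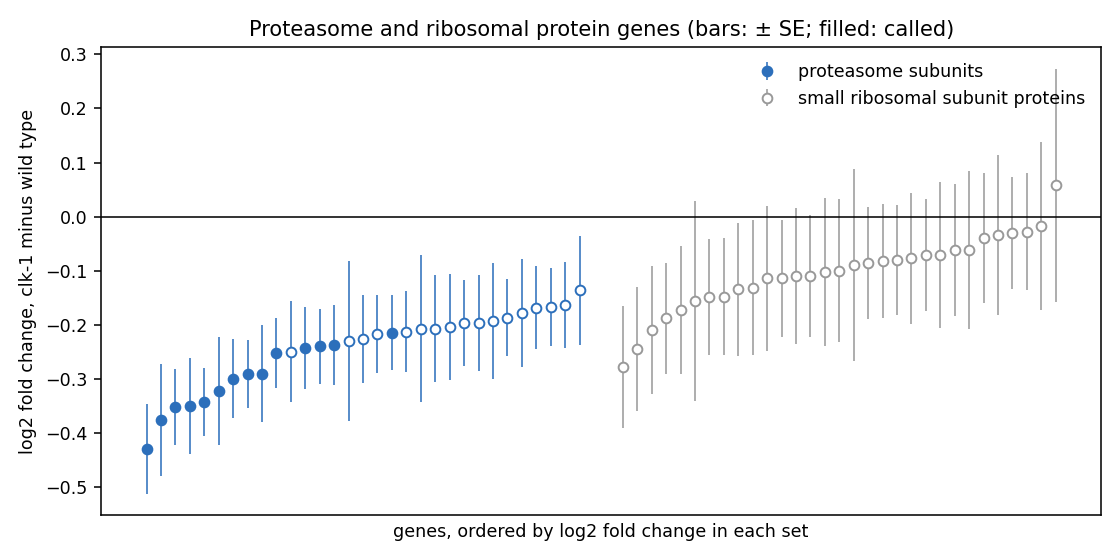
Log2 difference (clk-1 minus wild type, with its SE) of the 31 proteasome subunit genes and the 31 rps genes of the small ribosomal subunit, ordered within each set, filled where called. All proteasome points lie below 0, from -0.43 to -0.14, and 14 are filled. No rps point is filled.

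Other genes of protein synthesis and folding moved down in small numbers against wild type. Of 25 eif genes, which encode translation initiation factors, 5 fell and 1 rose, the largest falls being eif-3.J (-0.39, adjusted p = 0.0066) and eif-1.A (-0.37, adjusted p = 0.023, but up to 0.087 without wild-type replicate 9 or 10 or clk-1 replicate 4). Of 21 cytosolic aminoacyl-tRNA synthetase genes, vars-2 fell from 349 to 507 CPM to 275 to 334 CPM (-0.56, SE 0.10, adjusted p = 0.00014) and yars-1 fell by 0.38 on the log2 scale (adjusted p = 0.021, but up to 0.071 without wild-type replicate 9 or 10 or clk-1 replicate 5). In the list of the endoplasmic reticulum stress response 15 of 17 genes were negative with a median of -0.32, but only dnj-7 fell (-0.73, adjusted p = 0.013). None of 17 heat shock chaperone genes tested passed. Against the sod-1, ctl-1 and prdx-2 libraries no eif, synthetase or endoplasmic reticulum stress gene tested was lower. Their medians were then -0.01, 0.02 and -0.12.

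Nuclear hormone receptors, ligand-regulated transcription factors that are unusually numerous in worms, were the family with the most risen genes. Of 170 nhr genes tested 39 rose and none fell, that is 22.9% against 6% of all genes, with a median log2 difference of 0.26 (range -0.56 to 2.18). On leaving out single libraries the count was 27 to 41. The largest rise was that of nhr-61, from 5.44 to 8 CPM in wild type (median 6.13) to 18.6 to 69.9 CPM in clk-1 (median 28.2), a log2 difference of 2.18 (SE 0.22, adjusted p = 6.3e-09). The gene overlaps another on the opposite strand.

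Others with no overlap between strains were nhr-115 (1.64, adjusted p = 2.9e-05) and nhr-210 (1.48, adjusted p = 3.6e-05), besides nhr-57 above. Chromosome V, where much of this family lies in clusters, held 106 of the genes tested and 30 of those called, which is 28.3% against 8.02% of all genes on that chromosome. The receptor genes nhr-49 (0.12, adjusted p = 0.58) and nhr-86 (-0.03, adjusted p = 0.87) did not pass. Mean levels of nhr-61 were 52.7 CPM in isp-1, 53.9 CPM in nuo-6 and 8.36 CPM in daf-2.

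Genes of xenobiotic metabolism changed in both directions. Cytochrome P450 enzymes oxidise foreign and endogenous lipophilic compounds, and of 61 cyp genes 10 rose and 4 fell. The gene cyp-14A4 ranged from 0.154 to 0.606 CPM in wild type and from 2.85 to 20.53 CPM in clk-1 (3.37, SE 0.43, adjusted p = 5.9e-07). For cyp-33C8 the ranges were 3.92 to 7.55 CPM and 21.7 to 91.1 CPM (3.28, SE 0.30, adjusted p = 3.6e-10), and cyp-14A1 rose by 2.38 (adjusted p = 3.2e-07). Among the 4 that fell, cyp-35A3 changed most. Its range was 12.12 to 25.8 CPM in wild type and 0.713 to 5.21 CPM in clk-1 (-2.60, SE 0.37, adjusted p = 4.4e-06), and cyp-35A4 (-1.45) and cyp-35C1 (-1.21) fell as well, though neither passed against the sod-1, ctl-1 and prdx-2 libraries (adjusted p = 0.086 and 0.47).

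UDP-glucuronosyltransferases couple such compounds to sugars, and of 59 ugt genes 9 rose (15.3%) and 2 fell (3.39%). The largest was ugt-19, from 8.85 to 11.4 CPM to 33.8 to 102 CPM (2.59, SE 0.26, adjusted p = 3e-09), followed by ugt-2 (1.98), ugt-61 (1.74) and ugt-36 (1.64). Of 34 glutathione S-transferase genes 3 rose (8.82%) and 1 fell (2.94%), shares near the 6% and 2.27% of all genes. The fallen one, gst-38, was lost without wild-type replicate 8, 9 or 10 or clk-1 replicate 2, 3, 4 or 5 (adjusted p = 0.039, and up to 0.12). The stress reporter gst-4 ranged from 12.4 to 23.1 CPM in wild type and from 19.8 to 74.2 CPM in clk-1 (1.42, SE 0.31, adjusted p = 0.0023), with 1 clk-1 library inside the wild-type range, and gst-14 rose from at most 0.238 CPM to 0.808 to 1.74 CPM (1.48, adjusted p = 0.0006). The oxidoreductase family dhs had 3 of 30 genes higher (10%, near the share of all genes), led by dhs-31 (1.23, adjusted p = 0.00097). Of 13 metal-handling genes tested, cdr-2 (1.70, adjusted p = 1.7e-06) and cdr-4 (1.82, adjusted p = 0.011) rose, the latter with wild-type replicate 12 at 177 CPM inside the clk-1 range. The cdr-4 call was not made by edgeR (log2 difference 1.34, adjusted p = 0.1).

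Genes with F-box, BTB or MATH domains, many of which encode substrate adaptors of ubiquitin ligases, also had members called higher and none called lower. Of 118 fbxa genes 23 rose (19.5%), of 34 bath genes 11 (32.4%), of 24 math genes 4 (16.7%) and of 18 fbxc genes 3 (16.7%). The share over all genes was 6%. Median log2 differences were 0.22 for fbxa, 0.16 for bath, 0.05 for math and -0.06 for fbxc. On leaving out single libraries the fbxa count was 17 to 26 and the bath count 9 to 12, whereas the fbxc count went down to 1. The largest was fbxa-192, from 0.437 to 1.39 CPM in wild type to 15.7 to 26.3 CPM in clk-1 (3.90, SE 0.15, adjusted p = 3.3e-20). It lies at 17640672 to 17650527 on chromosome V of WBcel235 among other fbxa genes that rose with it, namely fbxa-191 (2.52), fbxa-193 (2.73), fbxa-129 (1.09) and fbxa-108 (0.92), the last of which ends at 17659385. Of these, fbxa-191 and fbxa-193 are annotated as pseudogenes. Counts of single genes could be uncertain where sequences are alike, which was not tested.

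Among the bath genes, bath-13 ranged from 0.14 to 0.912 CPM and from 7.03 to 9.03 CPM (3.11, SE 0.17, adjusted p = 6.5e-16), bath-45 rose by 2.23 (adjusted p = 2.6e-12) and bath-24 by 1.401 (adjusted p = 2.4e-05). Chromosome II carried 26 of the bath genes tested and 9 of those called. For some of these genes the wild-type libraries were lower than every other strain. The mean of fbxa-192 was 0.853 CPM in wild type but 3.82 to 11.8 CPM in every one of the 6 other strains. With the 9 sod-1, ctl-1 and prdx-2 libraries as reference, 15 fbxa genes were higher and 3 lower in clk-1, and 6 bath genes were higher. Of the math genes 7 were higher and 4 lower, and of the fbxc genes 1 was higher and 2 lower. The nhr count was 44 higher and 1 lower.

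Of the 50 ttr genes, which encode small secreted transthyretin-like proteins, 12 rose and none fell (7 rose without wild-type replicate 7). The risen share was 24%, against 6% of all genes. The risen genes included ttr-33 (7.93 to 11.7 CPM against 14.1 to 28.8 CPM, log2 difference 1.07, adjusted p = 2.5e-05) and ttr-7 (0.93, adjusted p = 0.00017). Of 15 srlf genes 5 rose (33.3%, and 3 genes at the lowest on leaving out single libraries), the largest being pqn-60 (srlf-35), from 1.5 to 2.52 CPM to 6.19 to 10.9 CPM (1.95, adjusted p = 1.8e-09). The homeobox genes of the ceh family (31 tested) and the bestrophin channel genes of the best family (25 tested) had 3 members higher each. These shares were 9.68% and 12%, and each count was 1 at the lowest on leaving out single libraries.

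**Figure D4:**
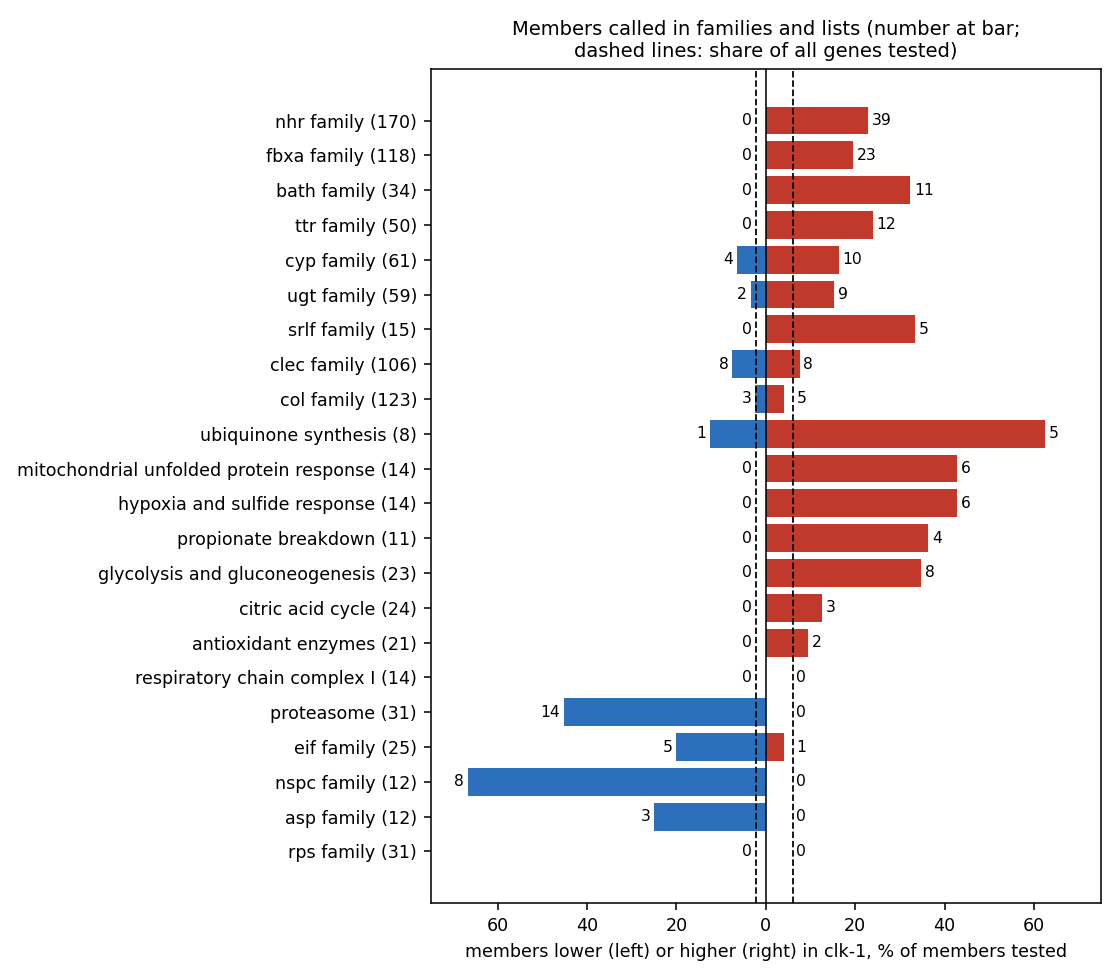
Share of the members tested (number in brackets) called lower (left, blue) and higher (right, red) in clk-1 for the families and lists described, with the number called at each bar. The dashed lines mark the shares of all genes tested, 2.27% lower and 6% higher. Among the bars that reach past the line on the right are nhr, fbxa, bath, ttr, ubiquinone, unfolded protein response, hypoxia, propionate and glycolysis. Among those past it on the left are proteasome, nspc, asp, eif and clec.

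C-type lectins, secreted proteins many of which respond to pathogens, rose in 8 and fell in 8 of 106 cases, with a median of -0.19. The share was 7.55% in each direction, which on the higher side is near the 6% of all genes and on the lower side stands beside 2.27%. The clearest fall was that of clec-169, from 4.27 to 6.95 CPM to 0.792 to 1.55 CPM (-1.70, SE 0.19, adjusted p = 5.5e-08), and clec-17 rose by 1.72 (adjusted p = 0.00089), though its difference from the sod-1, ctl-1 and prdx-2 libraries was -0.61. Without wild-type replicate 10 the counts were 4 higher and 5 lower, and without clk-1 replicate 3 or 5 there were also 5 lower. Of 13 genes of the p38 MAP kinase pathway and its reporters, T24B8.5 (sysm-1) rose (1.503, adjusted p = 0.022, but up to 0.066 without wild-type replicate 10 or clk-1 replicate 3), and clec-67 (-1.196, adjusted p = 0.0087) and F35E12.5 (irg-5, -1.05, adjusted p = 0.039, but up to 0.11 without wild-type replicate 7, 9, 10 or 11 or clk-1 replicate 2, 3, 4 or 5) fell.

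Of 15 epidermal antimicrobial peptide genes tested nlp-28 (1.44, adjusted p = 0.0065) and nlp-29 (0.99, adjusted p = 0.0014) rose. Among aspartic proteases 3 of 12 asp genes fell (25%, against 2.27% of all genes) and none rose. They were asp-12 from 15.9 to 42.6 CPM to 2.82 to 9.51 CPM (-2.204, SE 0.30, adjusted p = 2e-06), asp-14 (-1.73, adjusted p = 0.00075) and asp-17 (-1.097, adjusted p = 0.0023). For asp-12 the mean in isp-1 was 3.84 CPM and in nuo-6 6.51 CPM, against 94.7 CPM in daf-2.

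The nspc genes, small peptide genes clustered on the X chromosome, fell in 8 of 12 cases (66.7%, against 2.27% of all genes). The count was 7 to 9 on leaving out single libraries. The largest falls were those of nspc-17, from 5.31 to 10.6 CPM to 0.911 to 2.42 CPM (-1.95, SE 0.24, adjusted p = 3.7e-07), and nspc-18 (-1.90, adjusted p = 4e-08). By position, all 5 tested members between 14523575 (nspc-16) and 14530207 (nspc-20) fell, while none of the 3 between 8534672 (nspc-1) and nspc-7 passed. The mean of nspc-17 was 8.03 CPM in isp-1 and 8.49 CPM in nuo-6, and 0.614 CPM in daf-2. These copies are near-identical and lie side by side, so that the counts of single members are uncertain. Of the 123 collagen genes of the col family 5 rose and 3 fell, a share close to or below that of all genes. Among the risen ones col-147 went from 116 to 183 CPM to 298 to 367 CPM (1.11, SE 0.22, adjusted p = 0.0009). All 3 falls, among them col-137 (-1.61) and col-152 (-1.32), were lost without clk-1 replicate 3, and against the sod-1, ctl-1 and prdx-2 libraries 19 col genes were higher and 1 lower.

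Chromatin and small RNA genes gave few changes. Of 16 his genes his-72, which encodes the replacement histone H3.3, rose from 120 to 133 CPM to 171 to 199 CPM (0.53, SE 0.08, adjusted p = 1.3e-05), and his-59 (-0.90) and his-68 (-0.77) fell. Of the Argonaute genes csr-1 fell (-0.36, adjusted p = 0.012, but 0.053 without clk-1 replicate 4). In the dauer and insulin lists daf-5 (0.68, adjusted p = 0.00042) and ins-7 (0.88, adjusted p = 0.023, but up to 0.086 without wild-type replicate 9 or clk-1 replicate 1, 3, 4 or 5) rose. The study followed 8 DAF-16 target genes in these worms, so their count is no independent evidence of direction. Of these, 4 rose, including sodh-1 (1.84) and sod-3 above. All 8 differences were positive, from 0.31 to 1.84 with a median of 0.89. Against the sod-1, ctl-1 and prdx-2 libraries 2 were higher (median 0.25). By quantitative PCR on separate samples, the paper reports a significant rise of every one of these genes in clk-1. The daf-16 transcript itself had a log2 difference of 0.16 (adjusted p = 0.59).

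No member was called among 23 autophagy and lysosome genes, 11 of mitophagy, 18 of DNA replication or 26 of moulting. Families of 30 or more with at most 1 call were flp, let, mrpl, msp, rpl, rps, twk, unc and vps. The flp neuropeptide genes went from 1 to 3 higher without wild-type replicate 10.

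Among single genes with separated strains the largest rises were mostly of unnamed genes. C38D9.2 on chromosome V ranged from 0.477 to 2.08 CPM in wild type (median 0.978) and from 56.4 to 118 CPM in clk-1 (median 67.2), a log2 difference of 5.58 (SE 0.22, adjusted p = 3.3e-20). Its mean was 121.8 CPM in isp-1, 123 CPM in nuo-6 and 12.4 CPM in daf-2, but 0.013 to 1.31 CPM in sod-1, ctl-1 and prdx-2. F40D4.13, also on chromosome V, moved from at most 0.29 CPM to 8.44 to 17.5 CPM (4.22, adjusted p = 2.6e-19), though it overlaps a gene on the opposite strand. B0205.13 (3.78) and B0205.14 (3.48), neighbours on chromosome I, rose together, and F15D4.5 (3.25) on chromosome II spread from 6.8 to 103.96 CPM among clk-1 libraries. The noncoding RNA tts-1, named after its values were seen, ranged from 3.64 to 84.5 CPM in wild type and from 84.2 to 633 CPM in clk-1 (3.88, SE 0.75, adjusted p = 0.0005).

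Most of the largest falls were in genes that were also low in other strains. They were ZK218.5 (-4.67), BE0003N10.6 (-4.42), the pseudogene srp-5 (-3.77), D1014.6 (-3.71), ZK218.11 (-3.09) and D1014.7 (-3.08). Their means were between 0 and 1.98 CPM in daf-2, nuo-6 and isp-1 as in clk-1. They were expressed in the wild-type libraries, but in replicate 7 ZK218.5 was at 0.207 CPM and ZK218.11 at 0.166 CPM. In ctl-1 and prdx-2 ZK218.5 averaged 14.1 and 6.7 CPM, and ZK218.11 4.03 and 1.92 CPM. BE0003N10.6 averaged 13 CPM in sod-1. For srp-5 the wild-type range was 4.93 to 7.35 CPM and the highest clk-1 library was at 0.0352 CPM, and the means of all other strains lay between 0 and 0.0259 CPM. With the 9 sod-1, ctl-1 and prdx-2 libraries as reference, srp-5, D1014.6, D1014.7 and BE0003N10.6 did not pass. D1014.6 and D1014.7 averaged 11.8 and 8.73 CPM in wild type. Their highest means among the other strains were 1.43 and 1.17 CPM, both in sod-1. For these 4 genes the difference from wild type was not particular to clk-1, and its cause was not tested.

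The respiratory-chain mutants give a comparison that does not use the wild-type libraries. Against isp-1, 176 genes were higher in clk-1 (1.25% of genes tested) and 278 lower (1.98%). Against nuo-6, 1019 were higher (7.26%) and 1808 lower (12.9%). These comparisons share the clk-1 libraries with each other and with the one above, so their values are set side by side only. Of the nhr genes, 4 were higher and 1 lower than in isp-1, and 7 were higher and 41 lower than in nuo-6. In all, 64 genes were called in the same direction against all 3 strains, 23 higher and 41 lower. Of these, the 6 with the largest smallest difference were taken in each direction.

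On the higher side, frpr-10 gave the most even pattern. It encodes a receptor of the FMRFamide peptide receptor family and ranged from 0.16 to 0.559 CPM in wild type and from 2.18 to 4.21 CPM in clk-1 (2.24, SE 0.19, adjusted p = 3.6e-11). Its mean was 0.506 CPM in isp-1, 0.41 CPM in nuo-6 and 0.65 CPM in daf-2, and the log2 difference was 1.84 from isp-1 and 2.02 from nuo-6. The gene spans positions 7957804 to 7973690 of chromosome IV in WBcel235 and encloses F57H12.5, which fell (-1.54, adjusted p = 0.00013). The acyltransferase-like gene oac-10 (1.58), W08E12.2 (2.35), R05H10.1 (2.18), T05E12.3 (1.32) and the patched-related gene ptr-22 (1.398) also passed in all 3 comparisons.

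W08E12.2 lies on chromosome IV and R05H10.1 on chromosome II, yet both had a lowest clk-1 value of 2.17 CPM and a highest of 14.6 CPM. The call for T05E12.3 (adjusted p = 0.021) was lost without wild-type replicate 9 or 11 or clk-1 replicate 4 or 5 (adjusted p up to 0.058). Against sod-1, ctl-1 and prdx-2, neither W08E12.2 (0.98, adjusted p = 0.13) nor R05H10.1 (0.77, adjusted p = 0.19) passed.

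**Figure D5:**
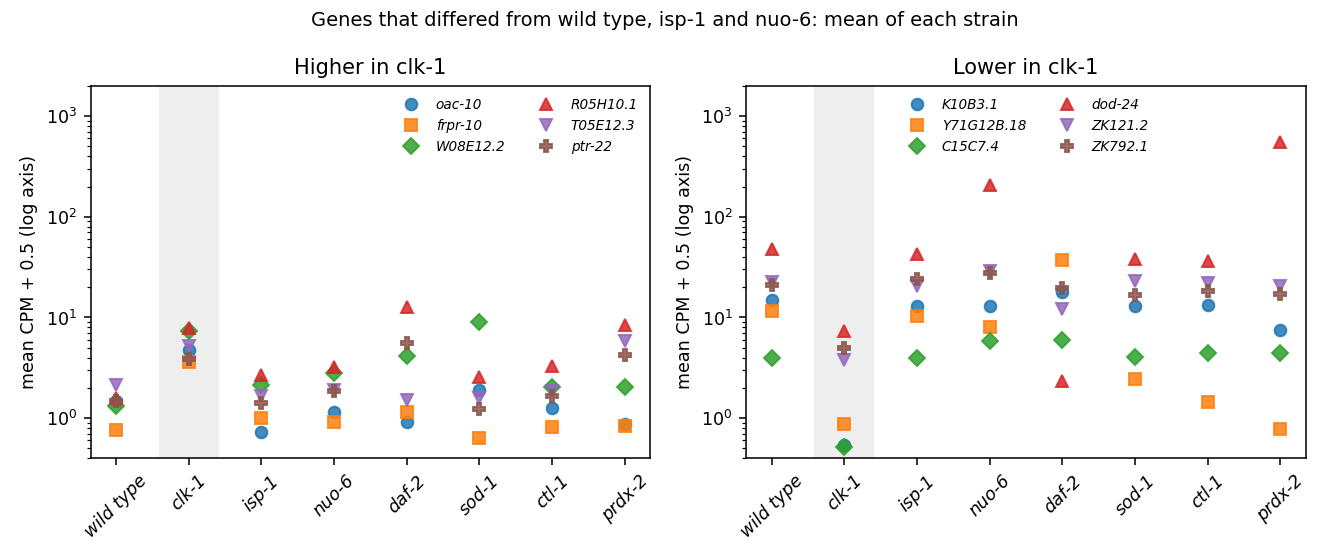
Mean CPM + 0.5 of each strain (log axis), with the clk-1 column shaded. Shown are the 6 higher (left) and 6 lower (right) genes with the largest smallest difference from wild type, isp-1 and nuo-6. The genes K10B3.1 and C15C7.4 lie at the floor in clk-1 only, and dod-24 is lower still in daf-2 (1.85 CPM against 6.9 CPM in clk-1).

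On the lower side, K10B3.1 and C15C7.4 were at or near 0 in clk-1 alone among the 8 strains. K10B3.1 ranged from 8.29 to 29.7 CPM in wild type and from 0 to 0.13 CPM in clk-1, and its mean was 7.04 to 17.6 CPM in the 6 other strains. It had 6 reads over the 6 clk-1 libraries and 2022 over the wild-type libraries, a ratio of 356 in CPM (95% interval 163 to 969, from counting error in the low count only). C15C7.4 ranged from 2.4 to 5.22 CPM and from 0 to 0.0433 CPM, with 2 and 490 reads, a ratio of 253 (95% interval 70.2 to 2093). They are neighbours on the X chromosome of WBcel235, K10B3.1 at 3135486 to 3136663 and C15C7.4 at 3145565 to 3147517. The genes on either side in the table, spc-1 (-0.03, adjusted p = 0.94) and C15C7.5 (-0.48, adjusted p = 0.44), did not pass. The clk-1 gene lies on chromosome III, where 5.52% of genes were higher and 2.35% lower, close to the shares over all genes.

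The other falls taken from those that held against all 3 strains were Y71G12B.18 (-3.58), ZK121.2 (-2.65), dod-24 (-2.74) and ZK792.1 (-2.07). ZK792.1 was the most even of them, from 16.3 to 26.1 CPM in wild type to 3.55 to 5.59 CPM in clk-1 (SE 0.11, adjusted p = 1.3e-16), with means of 23.6 CPM in isp-1 and 27.3 CPM in nuo-6. ZK121.2 lies at 5341682 to 5344259 on chromosome III, close to clk-1 at 5277894 to 5279344. Y71G12B.18 averaged 0.277 to 1.93 CPM in sod-1, ctl-1 and prdx-2, like the 0.377 CPM in clk-1. The immune and DAF-16-responsive gene dod-24 ranged from 30.7 to 82.7 CPM in wild type and from 3.98 to 13.1 CPM in clk-1 (SE 0.33, adjusted p = 1.8e-07), and averaged 205 CPM in nuo-6 and 559 CPM in prdx-2. Named after their values were seen, dod-17 (-1.65, adjusted p = 0.0034) and irg-1 (-1.74, adjusted p = 0.00024) were also lower in clk-1 than in wild type. The dod-17 transcript was lower than in isp-1 (-2.04) and nuo-6 (-2.81) as well.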

How the data were processed

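The authors prepared stranded mRNA libraries (Kapa), sequenced them on a NextSeq 500, aligned reads to WBcel235 with STAR 2.5.2b, counted them per gene with STAR GeneCounts and normalized them with edgeR 3.20.1. The strand column counted and the filter on low genes are not given in the sources used here. The deposited values are a signal, CPM scaled per library. Dividing by the value of 1 read gave whole reads for 99.9644 to 100% of values (tolerance 0.05). Depth was 23116865 to 28805205 reads over the 12 libraries, and intervals cover counting error only. Tables of the separate sod-2 experiment were not used here.

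All 39 libraries entered 1 limma fit (3.58.1, R 4.3.3, trend) on log2(CPM + 0.5), without a fold threshold or covariate, two-sided, with Benjamini-Hochberg adjustment over 14033 genes. The quasi-likelihood test of edgeR 4.0.16 on recovered reads called 840 genes higher and 340 lower, and DESeq2 1.42.0 was a further alternative. The test was tested on simulated data. Gene names and WBcel235 positions came from the reference annotation, which matched 13955 genes. It marks 3559 genes whose exons overlap a gene on the opposite strand. A family is all genes whose symbol shares the letters before the hyphen, with at least 10 tested, which gave 128 families. In the 42 lists 672 of 707 genes were tested. Families described had at least 3 members called, and those with 30 or more members and at most 1 call are given by name. Members and lists were chosen with earlier results of these data known.

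The genes named were clk-1 and the 10 largest rises and 10 largest falls that passed the test. These rises and falls had no overlap between the strains and averaged 1 CPM or more in either. Up to 4 called members of each list or family and all genes of the ubiquinone and kynurenine lists were also named. So were the 6 genes in each direction with the largest smallest difference among those called against wild type, isp-1 and nuo-6. Other named genes stand beside these for comparison and were chosen after their values were seen. Alternatives were pseudocounts of 0.1 and 1, a mean of at least 1 CPM, each library left out, quantile normalization, the 12 libraries alone, another reference, removal of opposite-strand overlaps, both count tools and a 2-fold threshold. An oocyte covariate and leaving out wild-type replicates 9 and 10 were chosen after seeing the data. Whether replicate numbers pair libraries was checked by correlating deviations from strain means. Promoter sequences were not analysed here.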

Additional observations from a re-analysis of the deposited data

Results flagged for a closer look

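Single libraries stood far from the other 5 of their strain in 8 of the 72 groups examined (36 genes in 2 strains), with a gap beyond Dixon's 95% critical value, where chance gives about 1 in 20. In clk-1 replicate 4 acs-2 was at 621 CPM (next highest 302 CPM), and in clk-1 replicate 6 coq-3 was at 24.1 CPM (next lowest 25.9 CPM). In wild-type replicate 10 C15C7.4 was at 5.22 CPM (next 3.29), dod-24 at 82.7 CPM (next 48.2) and oac-10 at 3.03 CPM (next 0.693). In wild-type replicate 12 F15D4.5 was at 3.31 CPM (next 2.03) and coq-8 at 71.9 CPM (next lowest 93.5), and in wild-type replicate 8 T05E12.3 was at 3.18 CPM (next 1.73).

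For the 12 genes taken above, log2 differences of clk-1 from isp-1 and from nuo-6 are given. The genes were chosen from 64 by their differences from wild type, isp-1 and nuo-6, so these values are no further test. Those on the higher side were frpr-10 with 1.84 and 2.02, oac-10 with 2.42 and 1.91, W08E12.2 with 1.71 and 1.51, R05H10.1 with 1.48 and 1.69, T05E12.3 with 1.64 and 1.505, and ptr-22 with 1.42 and 1.12. Those on the lower side were K10B3.1 with -4.57 and -4.57, Y71G12B.18 with -3.45 and -2.93, C15C7.4 with -2.92 and -3.48, ZK121.2 with -2.56 and -3.03, dod-24 with -2.51 and -4.75, and ZK792.1 with -2.27 and -2.47.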

How the results depend on the processing

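Counts in clk-1 against wild type (842 higher, 318 lower) were 1282 and 1031 with an oocyte covariate, which kept all original calls. They were 1318 higher against the sod-1, ctl-1 and prdx-2 libraries, where 525 of the higher and 106 of the lower calls were kept, 151 lower without wild-type replicates 9 and 10, 490 lower by DESeq2, and 248 and 99 with at least a 2-fold change. Leaving out 1 library gave 685 to 825 higher and 219 to 343 lower. Against isp-1 it gave 116 to 171 and 203 to 328, the lowest higher count without clk-1 replicate 6. Against nuo-6 it gave 745 to 1150 and 1408 to 1904. Same-numbered libraries did not deviate together (correlations -0.62 to 0.41). With the replicate block counts were 160 and 271 against isp-1, and 825 and 1756 against nuo-6, against 220 and 312, and 1120 and 1909, without it in the same 18 libraries. No paired analysis was possible for clk-1 against wild type because they share no replicate number.

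Signs changed against the sod-1, ctl-1 and prdx-2 libraries for tdo-2 (0.21), afmd-1 (0.54), R07B7.4 (0.010), T24B8.5 (-0.067), bath-26 (-0.018), clec-17 (-0.61), col-152 (0.25), C17G10.9 (0.033), math-15 (-0.19) and ttr-23 (-0.34). Without wild-type replicates 9 and 10 tdo-2 was at 0.18. On leaving out 1 library tdo-2 ranged from -0.17 to 0.042, afmd-1 from -0.12 to 0.065, R07B7.4 from -0.15 to 0.0049 and nkat-3 from -0.040 to 0.11. The cause was not tested. Of the values of named genes under all alternatives 2300 kept their direction and side of the threshold, 289 no longer passed and 4 came to pass. Of the 189 named genes, 59 no longer passed against the sod-1, ctl-1 and prdx-2 libraries, 53 without wild-type replicates 9 and 10, 15 after quantile normalization and 5 with edgeR.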
